A study of Rattus norvegicus with 4 samples.

Results

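MicroRNAs (miRNAs) of cartilage cells were read from the 1 array of untreated rat primary chondrocytes (0 h), among the 4 arrays of the series. Primary chondrocytes are cells taken from cartilage, where they make and maintain the matrix, and grown in culture, here at 200000 cells per ml. The array was chosen by its title, and every probe of its experimental group was read, 679 rat miRNAs with 5 spots each. The other 3 arrays, of chondrocytes given 10 ng/ml interleukin-1β for 6, 12 or 24 h, are not analysed here. No agent was given to the cells on the array described. The labels do not state the cartilage, the animals, their age or sex, or the number of passages in culture. The sample is 1 array with no replicate, so nothing below was tested, and each ± is the SD over the 5 repeat spots of a probe. It covers spot-to-spot error on this array only. In such a bulk sample, fewer cells of a type and less RNA per cell cannot be told apart.

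A miRNA is a short RNA cut from a hairpin precursor. Of the duplex that the enzyme Dicer leaves, one strand (5p or 3p) is usually kept in the silencing complex, and the name of the other carries a star on this array. The seed, bases 2 to 8 from the 5′ end, pairs with target messages, so that miRNAs with the same seed are grouped as a family. In cartilage, miR-140 is the best known miRNA. Its hairpin lies in an intron of Wwp2, and mice without it have skeletal defects.

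Signal is given in linear scanner units, as the mean of the 5 spots minus the median of the 261 empty spots, 122.55 units. The detection limit was 151.32 units, the 95th percentile of the empty spots, and 3 or more of a probe's 5 spots had to exceed it. Ranks and shares below are those of fluorescence. Probes differ in how strongly they bind, so a higher rank does not show that more molecules were present.

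The sequences below are those that the brightest families are made of, as the array file gives them, with the seed in capitals. The let-7 family filled 8 probes, all of which were detected.
let-7a: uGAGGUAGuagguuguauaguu
let-7b: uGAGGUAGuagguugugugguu
let-7c: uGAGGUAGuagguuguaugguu
let-7d: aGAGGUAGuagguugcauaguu
let-7e: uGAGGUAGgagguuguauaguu
let-7f: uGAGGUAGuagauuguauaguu
let-7i: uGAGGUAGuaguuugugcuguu
miR-98: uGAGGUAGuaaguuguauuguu
The other 5 of the 6 brightest families are those of miR-23, miR-125, miR-21, miR-27 and miR-26.
miR-23a: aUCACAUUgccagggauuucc
miR-23b: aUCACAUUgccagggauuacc
miR-125a-5p: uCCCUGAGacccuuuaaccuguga
miR-125b-5p: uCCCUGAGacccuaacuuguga
miR-351: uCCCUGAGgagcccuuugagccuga
miR-21: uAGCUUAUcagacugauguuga
miR-27a: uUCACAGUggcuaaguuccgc
miR-27b: uUCACAGUggcuaaguucugc
miR-26a: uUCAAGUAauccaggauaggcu
miR-26b: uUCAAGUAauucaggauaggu

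Of the 679 miRNAs, 187 were detected, which is 27.5%. All 5 spots were above the limit for 159 of them, 4 spots for 15 and 3 spots for 13. Of the 492 that were not detected, 409 had no spot above the limit and 83 had 1 or 2. Over detected miRNAs the spots of a probe had a median coefficient of variation of 11.3%, and 12 exceeded 20%. The net signal ran over about 3 orders of magnitude (3.14 on the log10 scale), with a median of 296.5 units. The detected miRNAs of lowest net signal were miR-339-5p (24.2 units), miR-935 (29.0), miR-99b* (29.7), miR-496* (29.8) and miR-615 (31.9). The mean of miR-339-5p lay under the limit, which is 28.77 units net, and the miRNA was detected by its count of spots. The undetected miRNAs of highest mean signal were miR-708* (97.7 units), miR-582 (68.6), miR-33 (64.7), miR-3541 (48.9) and miR-667 (48.9). The first 3 of these each had 1 bright spot and 4 dim ones: for miR-708* the spots read 730, 93.1, 73.3, 114 and 91.2 units before subtraction.

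The signal was concentrated in few miRNAs. Together, 13 of the 187 held 50% of the net signal of detected miRNAs, 24 held 75%, 43 held 90% and 117 held 99%. The 10 brightest held 42.7% and the 20 brightest 68.5%, whereas the 100 dimmest detected miRNAs held 2.39%. Net signal exceeded 10000 units for 19 miRNAs and 1000 units for 57, and was under 100 units for 56.

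**Figure D1:**
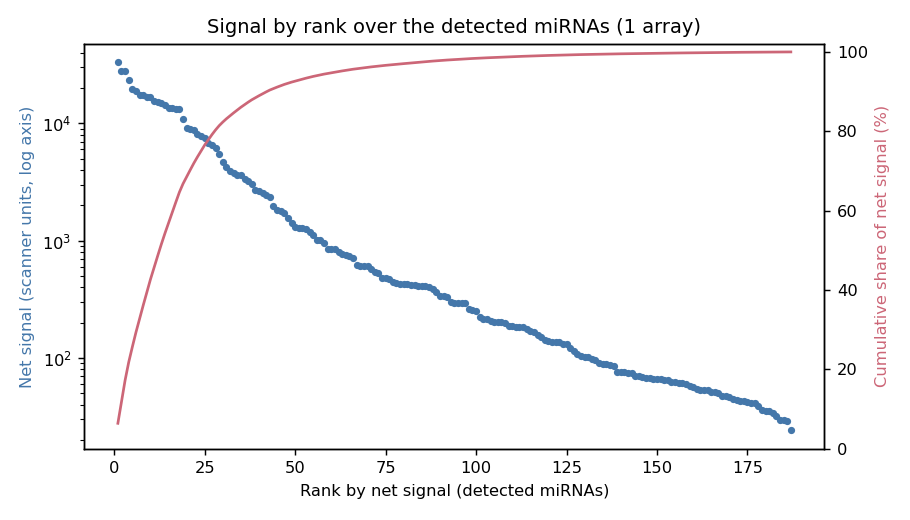
Net signal in scanner units on a log axis (points, left axis) and cumulative share of net signal in percent (line, right axis) against rank, for the 187 detected miRNAs of the untreated array. The line passes 50% at rank 13 and 90% at rank 43.

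The brightest probe was that of miR-125b-5p, the mammalian counterpart of worm lin-4, at 33057 ± 1730 units or 6.42% of the signal. Its 5 spots read between 31066 and 34716 units before subtraction. Next came miR-23b (28091 ± 1831), miR-21 (27870 ± 2039), an miRNA abundant in many cultured cells, and miR-23a (23396 ± 1658). Then followed let-7a (19766 ± 2121), let-7c (18974 ± 1897), miR-26a (17579 ± 1053) and miR-466b-1* (17345 ± 1696). The order of these probes is only partly settled by their spots. Between neighbours among the 20 brightest, means ± SD overlapped in 15 of 19 cases. They did not overlap between miR-125b-5p and miR-23b, between miR-21 and miR-23a, between miR-27b and miR-29a, or between miR-29a and miR-568.

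Ranks 9 to 20 held more of the same families. The let-7 family, known as a brake on proliferation and on embryonic gene programmes, added let-7b (16865 ± 1921 units), let-7d (14219 ± 1525), let-7i (13540 ± 1743) and let-7f (13454 ± 1616). miR-24 (15130 ± 1252 units) and miR-27b (13127 ± 967) come from hairpins that lie beside those of miR-23. The 20 brightest thus held 6 let-7 probes and 4 from the 2 clusters of miR-23, miR-27 and miR-24. miR-214 (15425 ± 1715 units) and miR-199a-3p (14927 ± 668) are known to come from 1 transcript in mesenchymal tissues. miR-29a (10918 ± 677 units) belongs to a family whose known targets include collagen messages. The others were miR-466c* (16763 ± 1494 units), miR-328a* (13310 ± 5989) and miR-568 (9080 ± 605).

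**Figure D2:**
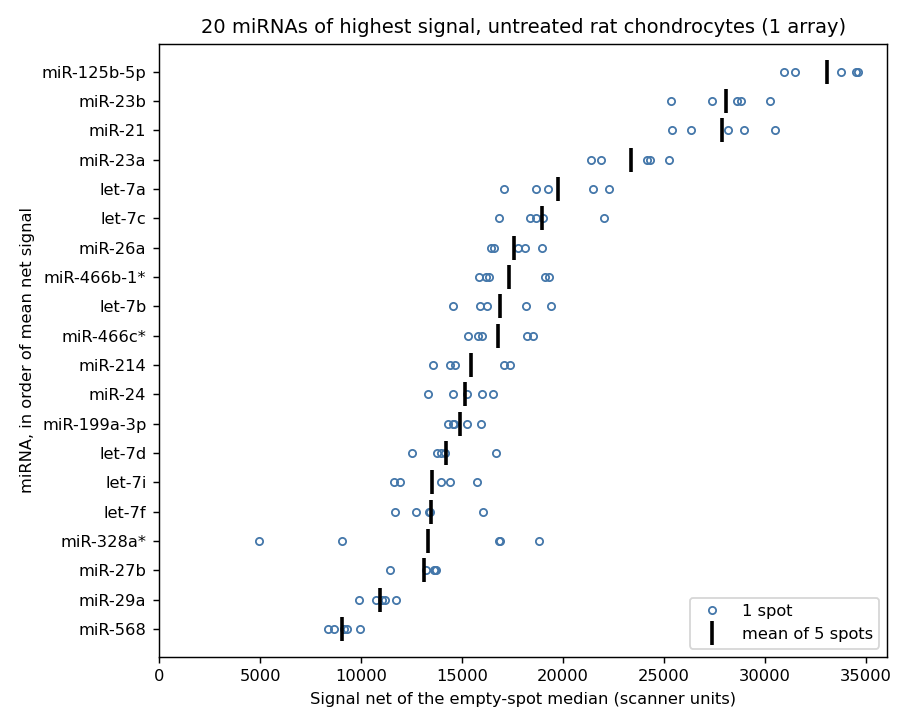
Net signal in scanner units of the 20 brightest miRNAs of the untreated array, with open circles for the 5 spots and a bar for their mean. The spots of miR-328a* spread most, from 5066 to 18946 units before subtraction, and the ranges of most neighbours overlap.

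By seed, the 187 miRNAs fell into 149 of the 564 seeds on the array. The 6 brightest families held 51.0% of the net signal. The let-7 family alone held 19.8%, with members from 19766 units (let-7a) to 406 units (miR-98). let-7e, at 4674 ± 816 units, stood well below the other let-7 probes but above miR-98. The miR-23 pair held 10.0%, the miR-125 family 7.75% with miR-351 not detected, miR-21 5.41%, the miR-27 pair 4.26% and the miR-26 pair 3.75%. In the last pair miR-26a gave 17579 units and miR-26b 1726 ± 221.

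Probes of near-identical sequence can bind each other's miRNA. let-7a differs from let-7c, let-7e and let-7f by 1 edit (a base changed, added or lost), as do miR-23a from miR-23b and miR-27a from miR-27b. Of the 187 detected miRNAs, 8 were no more than 2 edits away from another probe that was 4 or more times as bright. These were let-7e, miR-98 and miR-352 beside let-7 probes, miR-181c beside miR-181a, miR-181d beside miR-181b, miR-29c beside miR-29a, miR-26b beside miR-26a and miR-30e beside miR-30d. Their signal was between 2.06% (miR-98) and 23.6% (let-7e) of that of the brighter probe. How much of it came from the related miRNA was not tested.

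Beyond the 6 families, miR-221 and miR-222 held 2.80%, the miR-15/16 seed 2.25% and the miR-29 seed 2.24%. The miR-15/16 signal came mostly from miR-16 (7569 units), with miR-15b, miR-195 and miR-497 detected and miR-322 not. All 3 probes of the miR-99/100 seed were detected, at 3896 (miR-99a), 2686 (miR-99b) and 2538 units (miR-100), and held 1.77%. All 4 miR-181 probes were detected, at 1.29% in sum, and 5 of the 6 of the miR-30 seed, at 0.690%.

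Positions came from RefSeq on rat build GRCr8, where 608 of the 679 array sequences lie in a hairpin and 621 equal a mature miRNA. Grouped at 10 kb on 1 strand, the hairpins formed 51 clusters, of which 32 had a detected miRNA. The brightest cluster, miR-23b, miR-27b and miR-24-1 at chr17:1818669-1819482 (minus strand), held 11.0% of the net signal. Its paralogue of miR-23a, miR-27a and miR-24-2 at chr19:40859455-40859843 (minus strand) held 9.23%. A miRNA that several hairpins encode is counted in each cluster, which touched 11 of the 32. Without miR-24, which both clusters encode, they held 8.01% and 6.30%. The cluster of let-7a-1, let-7d and a let-7f hairpin that RefSeq names Mirlet7f-1os held 9.31%, of which let-7d and let-7d*, the members with no other hairpin, made 2.86%, and that of miR-221 and miR-222 on chromosome X 2.80%. The miR-143 and miR-145 cluster, known for its part in smooth muscle, held 1.54%. The growth-promoting miR-17-92 cluster on chromosome 15 had 4 of 12 probes detected, near the 27.5% of all probes. It held 0.244% of the signal, or 0.0587% without the 3 detected members that other hairpins also encode.

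In 19 clusters no probe was detected, where 27.5% of all probes were and most of these clusters have few probes. They include both clusters of the epithelial miR-200 family, the erythroid cluster of miR-144 and miR-451a, the cluster of miR-1 and miR-133a-1, and that of miR-216a and miR-217, known from pancreas. Others were not picked for a lineage, such as those of miR-130b and miR-301b, miR-374b and miR-421, and miR-3571 and miR-3582.

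The cartilage miRNAs were read from both arms of their hairpins, shown here because the star arm was the bright one in both miR-140 and miR-455. The miR-140 hairpin lies at chr19:52375293-52375391 (plus strand) and the miR-455 hairpin, within the collagen gene Col27a1, at chr5:81704834-81704911 (plus strand).
miR-140: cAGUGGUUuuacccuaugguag
miR-140*: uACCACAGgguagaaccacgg
miR-455: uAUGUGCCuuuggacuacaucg
miR-455*: gCAGUCCAcgggcauauacacu
The array's miR-140 and miR-140* are the 5p and 3p arms, RefSeq names miR-140* as miR-140-3p, and miR-455* is miR-455-3p.

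miR-140* ranked 23rd, with 8143 ± 571 units. The miR-140 probe read 181, 204, 180, 190 and 212 units before subtraction, all above the limit, and 70.6 ± 14.1 units net. The 3p arm was therefore 115-fold brighter than the 5p arm (log2 6.85). The ratio moved with the background step: on the log2 scale it was 5.42 with none, 5.43 to 5.86 with normexp, a model-based background step, and 6.49 in the authors' deposited table. miR-455* had 1821 ± 254 units, whereas miR-455 was not detected, with 1 spot above the limit, so that the 3p arm was at least 63.3-fold brighter in net signal. For such bounds the dim arm was set at the limit, 28.77 units net, or at its own signal where higher. The bounds hold after subtraction only: with none, and miR-455 set at 151.32 units, the 3p arm of miR-455 was 12.8-fold brighter. Of miR-675, made from the H19 transcript, miR-675* lay near the limit, at 33.9 ± 31.0 units with 3 spots above it. miR-675 was not detected, with no spot above the limit and -2.32 units net.

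Across the array, 266 pairs of probes lay on opposite arms of 1 hairpin. Both arms were detected in 16 pairs, the 5p arm alone in 65, the 3p arm alone in 53 and neither in 132. Where both were seen, the 5p arm was brighter in 8 and the 3p arm in 8, the difference was at least 2-fold in 13 and at least 10-fold in 10, and its median was 35.8-fold. Where only 1 arm was seen, it was at least 10-fold brighter in 67 of 118 pairs. Without subtraction the median was 19.1-fold, 9 pairs with both arms and 32 of the 118 were at least 10-fold apart. With a limit set within GC classes, chosen after seeing the data, 20 pairs with both arms detected were at least 2-fold apart in place of 13.

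Among the 16 pairs with both arms detected, the largest ratio of net signal was that of miR-23a, with 66.0 units on the 5p arm and 23396 on the 3p arm (355-fold, and 125-fold without subtraction). The 3p arm was also brighter by 294-fold for miR-27b and 89.3-fold for miR-24-2, or 79.3-fold and 52.3-fold without subtraction, where miR-24-2 stood above miR-140 at 42.8-fold. The miR-24 probe reads the product of both the miR-24-1 and the miR-24-2 hairpin, whereas miR-24-2* lies in the latter only. Its ratio is therefore not that of the miR-24-2 hairpin alone. For miR-22 the 3p arm was 42.1-fold brighter than the 5p arm, or 19.7-fold without subtraction. The 5p arm was brighter by 156-fold for miR-145, 90.5-fold for miR-99b, 77.1-fold for miR-125a and 29.4-fold for let-7d. Without subtraction these were 38.6-fold, 18.4-fold, 33.0-fold and 23.7-fold in the same order. miR-99b*, at 29.7 ± 18.7 units with 3 spots above the limit, was not detected with a limit within GC classes. Some pairs with 1 arm detected gave bounds above all of these, the highest being at least 1149-fold for miR-125b-5p, at least 976-fold for miR-23b and at least 969-fold for miR-21 (219-fold, 186-fold and 185-fold without subtraction, with the dim arm at the limit). The bound of miR-125b-5p is against the miR-125b-3p probe. It does not cover the miR-125b* probe, which was detected at 150 ± 16.8 units net. With a limit within GC classes miR-23b* (26.3 units net) was detected, so the bound of miR-23b does not hold there. Some hairpins gave near-equal arms: 1.44-fold for miR-324, 1.15-fold for miR-196b and 1.05-fold for miR-652.

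Star names did not always mark the dimmer arm. Of 241 probes with star names 44 were detected (18.3%), against 143 of the 438 others (32.6%). The star names held 15.2% of the signal, most of it from probes of low-complexity sequence, shown further below. These were miR-466b-1* (3.37% of the signal), miR-466c* (3.26%), miR-328a* (2.59%) and miR-466b-2* (1.74%). In 21 pairs only the star arm was seen. The largest bound was that of miR-483*, from an intron of Igf2, which at 3070 ± 239 units was at least 107-fold brighter than miR-483 (21.1-fold without subtraction). miR-455* came next, and then miR-32* at 806 ± 158 units (at least 28.0-fold, and 6.13-fold without subtraction). miR-34c*, of a p53-responsive family, had 604 ± 83.1 units, and miR-34c 1 spot above the limit. With a limit within GC classes miR-34c (24.0 units net) was detected too. miR-196c* (468 units), miR-322* (427), miR-758* (421) and miR-423* (390) were at least 13.5-fold to at least 16.3-fold brighter than their partners, and 3.38-fold to 3.90-fold without subtraction. With both arms seen, miR-210* (2475 ± 399 units) was 3.49-fold brighter than miR-210 (708 ± 61.5), the arm known as the hypoxia-induced one. miR-365* (570 units) was 5.88-fold brighter than miR-365 (96.9 units), or 3.15-fold without subtraction. Pairs known by name alone, 35 in all, include miR-199a, with 14927 units on the 3p arm and 3778 ± 205 on the 5p arm.

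**Figure D3:**
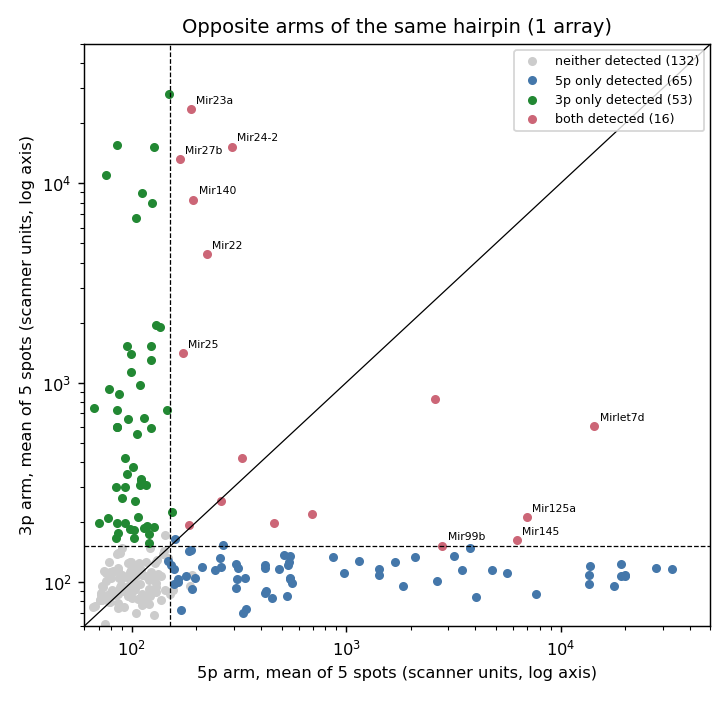
Mean of 5 spots, in scanner units before subtraction on log axes, for the 5p arm (horizontal) and the 3p arm (vertical) of 266 pairs, coloured by which arms were detected. Dashed lines mark the limit of 151.32 units and the diagonal marks equal arms. Most bright probes lie along an axis, and the 16 pairs with both arms detected include miR-140 far above the diagonal.

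The lists of lineage miRNAs are read against the 27.5% of all probes detected. They were chosen with earlier results of these data known, so a share above 27.5% does not by itself mark a lineage. Each list holds every probe to either arm of its hairpins. Of mesenchymal probes, 18 of 33 were detected (54.5%) and held 26.3% of the signal, with 6.42% from miR-125b-5p and 5.41% from miR-21. Besides those named above they were miR-221 (7839 ± 567 units), miR-222 (6596 ± 324), miR-145 (6123 ± 333), miR-22 (4283 ± 189), miR-31 (3655 ± 156), miR-152 (3212 ± 199) and miR-143 (1774), with miR-125b*, miR-22*, miR-138-1* and miR-145* between 39.3 and 150.0 units. Not every mesenchymal hairpin was seen. miR-138 itself (-15.9 units net) and every probe to miR-218a (-18.3 to -1.42 units net) had no spot above the limit. The cartilage list had 4 of 6 probes detected, at 1.96% of the signal, nearly all of it from miR-140* and miR-455*.

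Of probes to regulators of matrix and proteases, 16 of 32 were detected (50%), led by miR-26a, miR-24, miR-27b and miR-29a. miR-27a gave 8787 ± 593 units, whereas miR-29c (540 ± 128) and miR-29b (75.6 ± 31.9) were dim beside miR-29a. miR-92a (479 units), miR-30a (413), miR-101a (255), miR-101b (204) and miR-24-2* (169) were further down. miR-193, miR-148b-3p and miR-27b* were between 44.6 and 67.1 units.

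HOX-embedded miRNAs, which lie among the genes that pattern the body axis, had 6 of 11 probes detected. miR-10b gave 743 ± 57.2 units and miR-196c* 468 ± 78.3, miR-196a gave 216 units, and neither arm of miR-10a was detected. miR-196b*, miR-196b and miR-615 were under 100 units. Of inflammation-induced miRNAs 3 of 11 probes were seen: miR-132 (608 ± 107), miR-146a, which NF-κB signalling induces (330 ± 59.5), and miR-146b (185 ± 47.3). The hypoxia and stress list had 5 of 8, with the p53-responsive miR-34a at 435 ± 41.9 units and miR-34b* at 75.6 beside those named above.

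Probes to miRNAs of other lineages were mostly at the level of undetected probes. None of 12 blood-cell probes was detected, miR-142, miR-144, miR-150, miR-223 and miR-451 among them, and their means lay between 76.0 and 150.4 units before subtraction. Neither arm of the endothelial miR-126 was. Detection was found for 1 of 19 epithelial, 2 of 14 striated-muscle, 2 of 19 neural, 1 of 13 liver and endocrine and 1 of 10 pluripotent-cell probes. These counts depended on the limit. With the 95th percentile of the 20 background spots as the limit, 1 blood-cell, 2 epithelial and 4 neural probes were detected. With all 5 spots required, 1 striated-muscle probe and none of the 13 liver and endocrine probes were. With a limit within GC classes, chosen after seeing the data, miR-223, miR-451, miR-126, miR-192, miR-292-5p and miR-295 were detected, at 5.30 to 17.5 units over the empty median.

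The exceptions in those lists were few. miR-206, known from skeletal muscle, read 734, 650, 725, 712 and 895 units before subtraction and 621 ± 90.7 net, ranking 67th, while miR-1 (113 units before subtraction, no spot above the limit) and both miR-133 guide arms were not detected. miR-290, which rodent pluripotent cells are known to make, gave 849 ± 142 units, and it was the only detected probe of 11 in its cluster. miR-182 gave 253 ± 42.7 units without miR-96 or miR-183. miR-128 gave 183 ± 30.6 units and miR-129-2* and miR-208* were at 58.0 and 42.3 units. The value of miR-122* came largely from 1 spot, at 1086 units beside 164, 139, 153 and 188, and the liver's miR-122 itself had no spot above the limit.

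The imprinted Dlk1-Dio3 locus on chromosome 6 had 18 of 85 probes detected (21.2%, beside 27.5% of all probes), holding 0.933% of the signal. With the limit from the background spots or within GC classes 24 were detected. Over all probes these limits gave 216 and 209 in place of 187. miR-494 (1011 ± 177 units), miR-127 (853 ± 104) and miR-329 (755 ± 71.0) were the brightest. miR-377 owed much of its 531 units to 1 spot of 2143, beside 302, 249, 263 and 311. miR-758*, miR-379, miR-485*, miR-434, miR-134, miR-665, miR-382, miR-341, miR-342-3p, miR-323*, miR-409-3p, miR-539, miR-668 and miR-496* followed, between 29.8 and 421 units. miR-342, listed with them, lies apart, starting at base 133329655 where the other matched hairpins begin at 134298084.

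**Figure D4:**
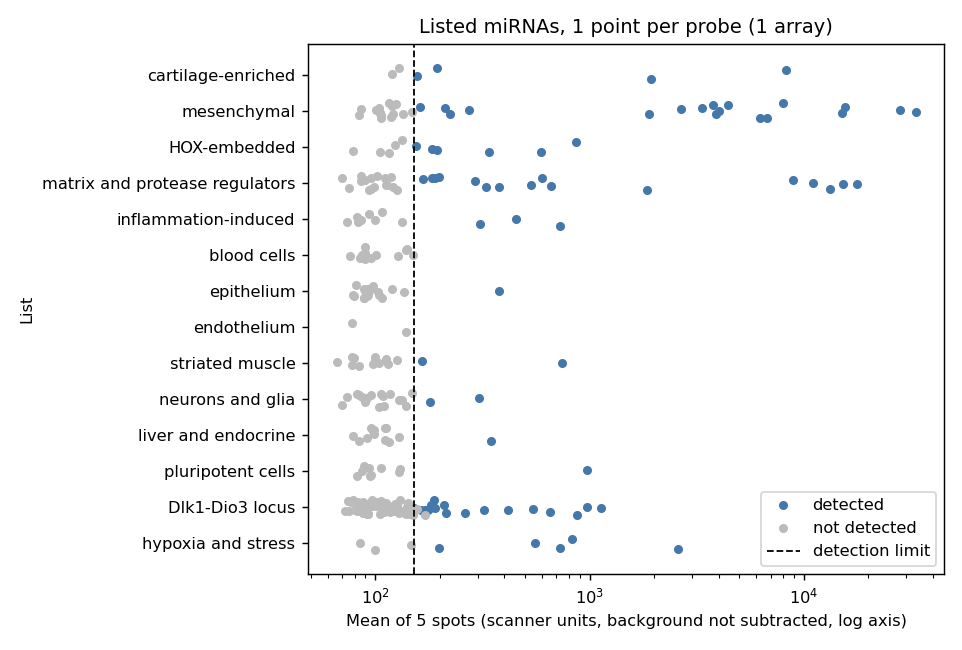
Mean of 5 spots, in scanner units before subtraction on a log axis, for every probe of the 14 lists of the untreated array, blue where detected and grey where not. The mesenchymal list reaches furthest right, and the blood-cell and endothelial lists lie left of the limit.

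Detection ran with GC content. Among undetected miRNAs the median signal before subtraction was 72.5 units at a GC content up to 30%, 84.0 up to 40%, 97.9 up to 50%, 115 up to 60%, 133 up to 70% and 144 above that. Across the 492 undetected miRNAs the log2 signal correlated with GC content (r = 0.672, rho = 0.684). The probes share 1 array and are not independent. The median empty spot, at 122.55 units, was brighter than 393 of the undetected probes. The share detected was 15.6% of 128 miRNAs over 30 and up to 40% GC, 28.6% of 301 up to 50%, 26.8% of 149 up to 60% and 43.4% of 76 up to 70%.

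Among the 187 detected miRNAs the net signal ran the other way (r = -0.299, rho = -0.326 on the log2 scale), with a median of 431 units over 40 and up to 50% GC and 76.8 units over 60 and up to 70%. With limits set within GC classes, chosen after seeing the data, 209 miRNAs were detected, 181 of them shared with the 187. The 6 lost were miR-339-5p, miR-615, miR-702-5p, miR-877, miR-935 and miR-99b*, all with at least 61.9% GC.

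**Figure D5:**
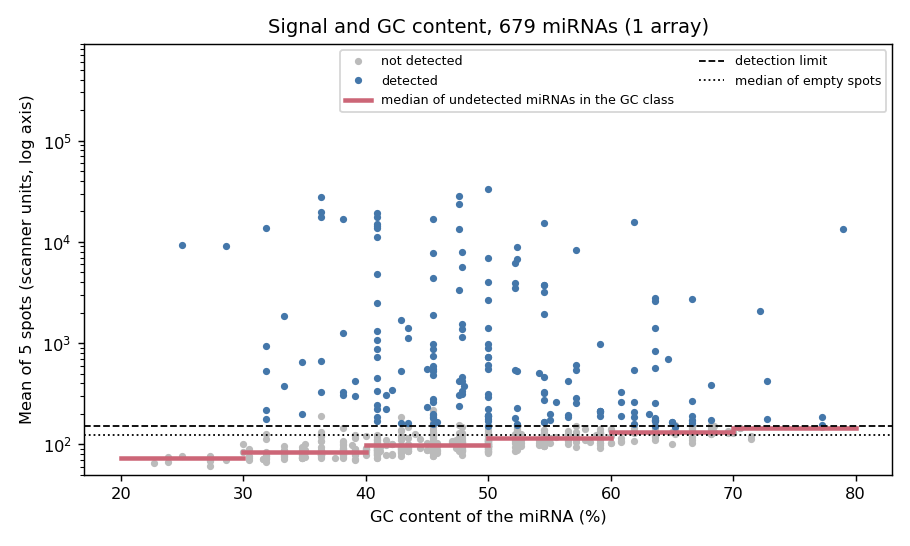
Mean of 5 spots, in scanner units before subtraction on a log axis, against GC content in percent for the 679 miRNAs, blue where detected. Red bars give the median of the undetected miRNAs in each GC class, which goes up from 72.5 to 144 units towards the limit of 151.32 units.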

How the data were processed

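Per the labels, the authors kept small RNAs under 300 nt, added a poly(A) tail and a tag, and stained it with Cy5. The deposited spot file holds 3968 spots, each as its mean pixel intensity on a linear scale, with no background subtracted. The authors' deposited table gives 1 intensity per miRNA, with scale, centring and background step not stated. Its values correlated with the detected net signals at r = 0.997 across miRNAs. They were 1.32 times the net signal in the median of the 20 brightest miRNAs and 1.64 times in the other detected ones, so shares differ between them. The image software is not given in the sources used here.

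Net signals, ranks, shares, seeds, arms and lists were computed with Python 3.11.15, numpy 2.4.6, pandas 2.3.3 and scipy 1.17.1, figures with matplotlib 3.10.9, and the normexp alternative with limma 3.58.1 in R 4.3.3. The detection rule was run on simulated spots drawn from the same empty spots that set the limit, with signal added to some. That run checks the code only. It cannot show how often miRNA probes without their target exceed the limit. Sequences are from the spot file, and arms and positions from RefSeq (GRCr8) by exact match.

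The miRNAs named were the 20 brightest, the 5 detected of lowest and the 5 undetected of highest net signal, and members of the 6 brightest families. Up to 8 hairpins with the largest arm ratios and up to 8 with only the star arm seen were named too. So were detected list members and the 5 with the most uneven spots. Others were chosen after their values were seen, as were the alternatives so described. The members and the lists were chosen with earlier results of these data known. Arrays of treated cells were left out. Alternatives changed the detection rule, the background, the summary of spots, the total, the grouping or the values used. Listed hairpins without a probe (miR-155 among them) did not enter.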

Additional observations from a re-analysis of the deposited data

Results flagged for a closer look

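The Ctr and PUC2 control probes, which enter no value above, carry signal that bears on near-identical sequences. Among the probes named Ctr, of 20 control probes named as mismatch forms of a probe that was above the limit, 7 were themselves above it in at least 3 of their 4 spots. Their signal as a share of the matched probe had a median of 0.631% over the 20 and a highest value of 66.4%, for Ctr09-3M10 (37362 units net, against 56283 for Ctr09-3P). Ctr09-3M05 was at 12.1% and Ctr03-3M05 at 10.7%, and no other of the 20 exceeded 10%. Of the 5 PUC2 spike controls named as mismatch forms, PUC2MM stood at 66.8% of PUC2PM (5222 units net, against 7813), and the other 4 between 0.0679% and 0.744% of their matches. How far this applies to miRNA probes was not tested.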

How the results depend on the processing

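No paired analysis was possible because only 1 array was used. The count of 187 detected miRNAs was 159 to 216 under the other spot rules and limits and 174 to 184 with a spot left out, but 678 of the authors' values lie above 0, since that table has no detection call. The 20 brightest miRNAs were the same 20 under the background, median and authors' values, and 19 of them remained without the third spot. The 42.7% held by the 10 brightest became 41.1% without background correction, 41.1% with normexp and an offset of 50, 39.0% in the authors' values and 48.2% without the miR-466, miR-568 and miR-328a* probes, where the let-7 family held 22.7%. The 13 pairs of arms at least 2-fold apart became 20 with limits by GC class. The correlation of -0.299 between net signal and GC content became -0.274 without background correction and with normexp, -0.284 with the median of spots, and -0.343 with background by GC class, while the mean signal without subtraction over all 679 probes, most of them undetected, gave r = 0.0908 and rho = 0.440. Signal over background limits the dim end: 56 of the detected miRNAs had under 100 units.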

Other observations

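Some of the brightest probes have sequences of low complexity, with repeats of A with C or U, or rich in G. They are shown because they stand among the let-7 and miR-23 probes in rank.
miR-466b-1*: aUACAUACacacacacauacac
miR-466c*: uAUACAUGcacacauacacac
miR-466b-2*: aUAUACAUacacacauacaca
miR-568: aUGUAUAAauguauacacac
miR-328a*: gGGGGGCAggaggggcuca
The 6 miR-466 probes held 8.49% of the signal with 5 detected, while miR-466c, the opposite arm of miR-466c*, was not (-23.6 units net). The letters ACACA stand in 17 of the 679 miRNAs, 9 of them detected, and these held 10.5% of the signal.

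Uneven spots marked some values. The 5 detected miRNAs with the most uneven spots were miR-377, miR-122*, miR-328a*, miR-185 and miR-3584-5p. miR-328a* read 18946, 9196, 5066, 16961 and 16992 units before subtraction, which no other of the 20 brightest approached in spread. The authors' deposited value was 205 for miR-377 and 75.3 for miR-122*, under the spot means of 654 and 346 units. miR-185 read 391, 279, 174, 331 and 377 units and miR-3584-5p 1595, 2765, 1879, 1566 and 2651.

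The 5 copies of the probe set lie in successive rows of the array. Relative to a probe's mean, detected probes had a median of 0.944 in the third copy and 1.08 in the fifth, and the copies had between 170 and 236 probes above the limit. With a limit per copy, chosen after seeing the data, 200 miRNAs were detected.

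By first base, beside the 27.5% of all probes, 32.1% of 243 miRNAs that begin with U were detected, 27.6% of 203 with A, 25.6% of 86 with G and 21.1% of 147 with C. They held 55.0% (U), 36.0% (A), 5.52% (G) and 3.46% (C) of the signal. Of 77 miRNAs numbered miR-3540 to miR-3599, 8 were detected (10.4%), with 0.795% of the signal.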
